A study of Rattus norvegicus with 12 samples.

Results

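The nuclear genes of the mitochondrial respiratory chain and of the ATP synthase were followed in RNA that came down with the double-stranded RNA-binding protein Staufen2 from embryonic rat brain. They were taken as the array probes whose symbol begins with Nduf (complex I), Uqcr (complex III), Cox followed by a digit from 4 to 8 (complex IV) or Atp5 (ATP synthase, complex V), or is Sdha, Sdhb, Sdhc or Sdhd (complex II). The pattern found 60 probes of 60 genes among 22226 probes. Complex I had 26 of them, complex II 4, complex III 5, complex IV 12 and complex V 11. The other 2 encode no subunit: Ndufaf1 is an assembly factor of complex I, and Atp5s, now called Dmac2l, is named after a coupling factor.

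Sprague-Dawley rat embryos of E17-E18 gave the tissue, their whole brains, and the lysates were incubated with a rabbit polyclonal antibody raised against Staufen2 (6 arrays) or with preimmune antibody as the control (6 arrays). No genotype, drug or other treatment separates the groups. The tissue label of all 12 samples reads P18, where the protocol text gives E17-E18. The labels do not tie arrays to embryos or lysates. The p-values therefore cover only the array-to-array spread, which may be technical in part. Lysates of whole brain pool all cell types, and in such material fewer cells of a type and less RNA per cell cannot be told apart. The control is a preimmune precipitate, and total RNA of the lysates was not analysed here, so a difference between the groups is not an enrichment over the brain's own RNA.

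The respiratory chain passes electrons from NADH through complex I, or from succinate through complex II, to complex III and then by cytochrome c to complex IV, which reduces oxygen. Complexes I, III and IV pump protons across the inner mitochondrial membrane, and the ATP synthase uses the returning protons to make ATP. Neurons depend heavily on this supply. Most subunits are encoded in the nucleus and translated in the cytosol before import, whereas a few core subunits are encoded in mitochondrial DNA and fall outside the symbol pattern. All 4 subunits of complex II, which is also an enzyme of the tricarboxylic acid cycle, are nuclear. Staufen2 is known for its part in the transport of mRNA into the dendrites of neurons.

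The groups differed widely in signal. Mean raw signal per array was 340 to 516 in Staufen2 immunoprecipitates, against 69.2 to 129 in preimmune ones. The share of all probes detected (detection p under 0.05) was 47.4% ± 1.25 on Staufen2 arrays and 25.4% ± 9.32 on preimmune arrays (SD, n = 6 each; two-sided exact permutation test, p = 0.00216). Preimmune replicates 6 and 2 detected the fewest probes, 11.6% and 17.6%. Neuronal markers were detected on all Staufen2 arrays for 4 of 4 genes on the array, and on all preimmune arrays for 3. The progenitor markers gave 3 and 2 of 3, the red blood cell markers 2 and 2 of 3, the endothelial marker 1 and 1 of 1, the meningeal and fibroblast markers 3 and 0 of 4, and the microglial markers 1 and 0 of 2. The summed signal over background of the 4 neuronal markers ran from 19722 to 35127 on Staufen2 arrays and from 192 to 4953 on preimmune arrays. That of the red blood cell markers ran from 2523 to 15940 and from 126 to 6400, and that of the endothelial marker from 217 to 878 and from 9.83 to 442. The part of these levels in the results was not tested.

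Of the 60 probes, 52 were detected on at least 6 of the 12 arrays and were tested. Between 52 and 54 of the 60 were detected on each Staufen2 array, against 38 to 51 on each preimmune array, and 36 were detected on all 12 arrays. All 52 tested probes were detected on all 6 Staufen2 arrays, so each met the detection filter without need of a preimmune array. The filter is therefore not neutral between the groups. Only Atp5s among the 52 was detected on no preimmune array. The 8 genes that were not tested were Ndufb4 and Ndufs6 of complex I, Cox6a2, Cox6b, Cox6c, Cox6c1 and Cox8h of complex IV, and Atp5g3 of the ATP synthase. Their mean raw signals lay near background in both groups, the highest being 98.3 on Staufen2 arrays against 78.8 on preimmune arrays for Ndufb4. Cox8h is now called Cox8b, and Cox6c1 is now the pseudogene Cox6c-ps1.

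In raw signal nearly all of these transcripts were brighter in Staufen2 immunoprecipitates. The raw signals of the groups did not overlap for 51 of the 52 tested probes, where 91.1% of all 9136 tested probes showed the same. The exception was Ndufab1, whose arrays overlapped. The mean signal over background of the 52 was a median of 6.34 times as high on Staufen2 as on preimmune arrays, against 11.3 times for all tested probes. That ratio is larger where the preimmune signal lies near background, and as unscaled log2 signals the medians were in the other order, 2.91 for the 52 and 2.57 for all tested probes. Differences from here on are of normalised log2 signals, Staufen2 minus preimmune, and are relative to the rest of the array.

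On that relative scale most respiratory chain and ATP synthase transcripts were lower in Staufen2 immunoprecipitates, and a small group was higher. After quantile normalisation 33 of the 52 were lower (63.5%), 8 were higher (15.4%) and 11 were not called (limma, adjusted p under 0.05 over all tested probes). Atp5s is among the 8, and since no preimmune array detected it, its call supports no difference. Ndufaf1 and Ndufa7, also among the 8, were detected on only 1 and 3 preimmune arrays. Among all 9136 tested probes 14.5% were lower and 31.3% were higher. Quantile normalisation at yields this unequal can call unchanged probes, which limits all these calls and was not tested here. The median log2 difference of the 52 was -1.08, against 0.08 over all tested probes. The normalised values of the groups did not overlap for 26 of the 52, against 32.6% of all tested probes. Among probes detected on all 12 arrays, 29 of 36 respiratory chain probes were lower and 3 higher, where 56.9% and 13.9% of all such probes were, with a median of -1.33 against -1.02. The direction depends on the scaling, since with median centring in place of quantile normalisation 4 of the 52 were lower and 11 higher, where 41.4% and 34.2% of all tested probes were. The median was then 0.29, against -0.05 over all tested probes. With no scaling 0 were lower and 51 higher, as were 0 and 9135 of all 9136 tested probes (100%).

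A second analysis kept to probes well over background on the Staufen2 arrays and on most preimmune arrays. Background was each array's median raw signal of the probes detected on no array, and a bright probe exceeded it by more than 20 on all 6 Staufen2 and at least 4 preimmune arrays. Of 3325 bright probes 47 were of the respiratory chain. On this scale, centred on each array's median bright probe, 32 of the 47 were lower (68.1%), 5 were higher (10.6%) and 10 were not called, where 41.6% and 27.3% of all bright probes were lower and higher (limma, adjusted p under 0.05 over all bright probes). Their median was -1.02, against -0.34 over all bright probes. Centring still drew on dim values, since the median bright probe of preimmune replicate 6 lay only 9.28 over background, under the cut of 20. That of preimmune replicate 2 lay at 21.8. Without preimmune replicates 2 and 6, an alternative chosen after seeing the data, 33 were lower and 5 higher, where 43.6% and 26.2% of all 3265 bright probes were.

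The bright selection requires signal on preimmune arrays, so dim probes can enter it only if they are relatively lower in Staufen2 immunoprecipitates. The respiratory chain was therefore set beside bright probes of like Staufen2 signal. Between 1000 and 2000 raw units, 16 respiratory chain probes had a median bright-probe difference of -1.16, against 0.10 for all 727 bright probes of that range, and 12 were lower and 0 higher, where 25.2% and 33.8% of the range were. Between 500 and 1000 units the medians were -1.12 for 10 respiratory chain probes and -0.41 for all, and between 2000 and 4000 units -0.99 for 5 and 0.68 for all. Above 4000 units the 8 respiratory chain probes had a median of 1.00, against 1.21 for all, with 5 higher and 2 lower. All 5 respiratory chain transcripts called higher on bright-probe values lay in that brightest range, where 71.5% of all bright probes were higher.

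**Figure D1:**
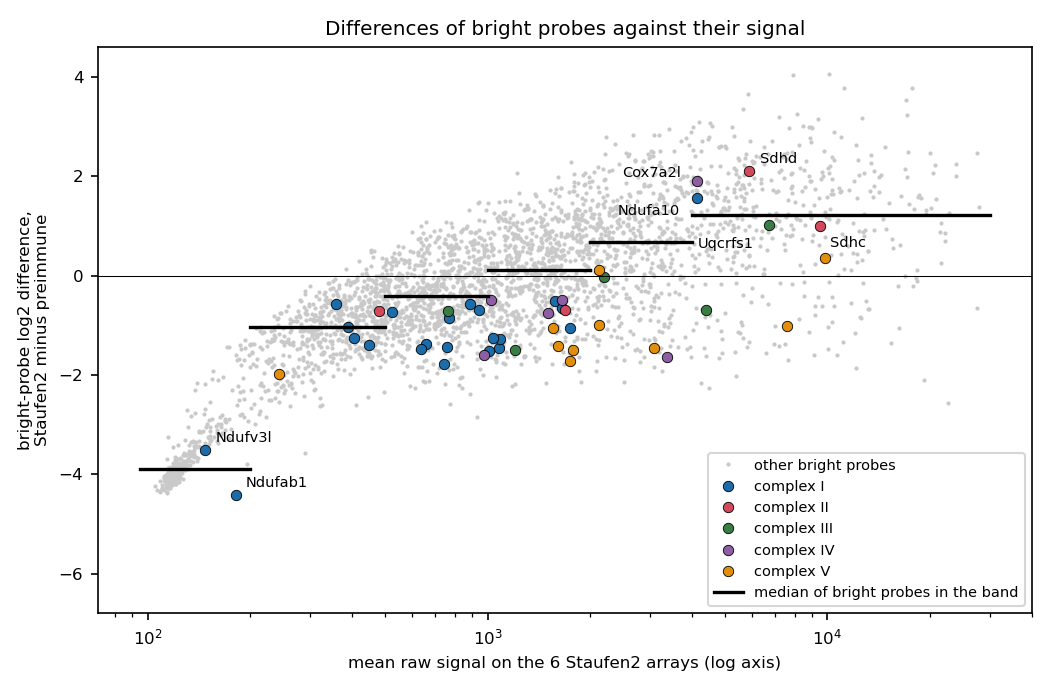
Bright-probe log2 difference, Staufen2 minus preimmune, of each bright probe (vertical axis) against its mean raw signal on the 6 Staufen2 arrays (horizontal log axis). Grey points are the other bright probes, coloured points the 47 respiratory chain and ATP synthase probes by complex, and bars the median of all bright probes in each signal range; in the middle ranges most coloured points lie under the bar, with a median of -1.16 against 0.10 between 1000 and 2000 units.

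The share of an array's summed signal over background that came from the 60 probes scales each array by its total, so it too is relative to the other probes. It was 1.17% ± 0.0938 on Staufen2 arrays and 1.88% ± 0.323 on preimmune arrays (SD, n = 6 each). The Staufen2 arrays ran from 1.07% to 1.32% and the preimmune arrays from 1.43% to 2.22%, so the groups did not overlap. Within the second of the 2 runs of codes that head the file's columns, whose meaning the labels do not give, Staufen2 replicates 4 and 5 were at 1.21% and 1.32%, against 1.59% and 1.43% on preimmune replicates 5 and 6. Gene by gene, the mean share was lower in Staufen2 immunoprecipitates for 43 of the 52 tested genes, where it was lower for 63.2% of all tested probes. It was lower with no overlap between the groups for 22 and higher with no overlap for 5, where 19.5% and 13.4% of all tested probes were.

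The complexes did not share this pattern evenly. Complex I took 0.253% ± 0.0233 of the signal on Staufen2 arrays and 0.497% ± 0.107 on preimmune arrays (SD, n = 6 each), and complex V 0.373% ± 0.0383 and 0.745% ± 0.11, both with no overlap between the groups. Complex II went the other way, at 0.208% ± 0.0461 on Staufen2 arrays and 0.118% ± 0.0222 on preimmune arrays, from 0.148% to 0.249% against 0.0827% to 0.140%. Within it the mean shares of Sdhc and Sdhd were higher on Staufen2 arrays, at 0.115% and 0.0694% against 0.0633% and 0.015%. Those of Sdha and Sdhb were lower, at 0.0047% and 0.019% against 0.0096% and 0.0302%. Sdhc and Sdhd lay above 4000 raw units, where 71.5% of all bright probes were higher. Complex III, at 0.179% ± 0.0125 and 0.223% ± 0.0556, and complex IV, at 0.153% ± 0.0194 and 0.292% ± 0.0872, overlapped between the groups. Of the signal of the 60 probes, complex II made up a median of 19.1% on Staufen2 arrays and 6.07% on preimmune arrays. The complexes also differed in level, with median raw signals on Staufen2 arrays of 753, 3787, 2203, 725 and 1778 for I to V. The part of level in these differences was not tested.

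**Figure D2:**
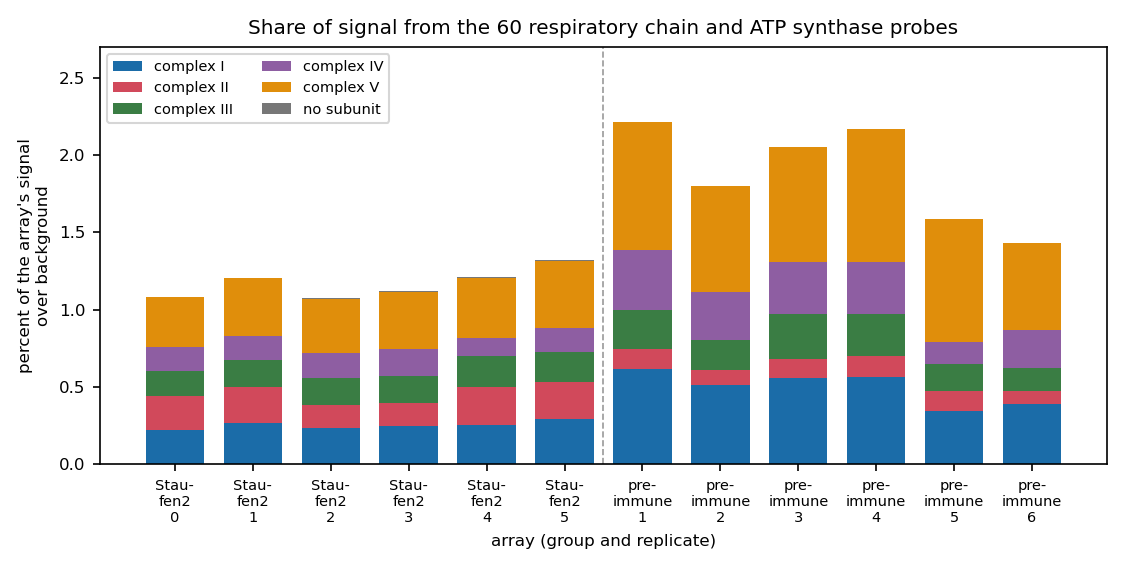
Share of each array's signal over background (vertical axis, percent) that came from the 60 respiratory chain and ATP synthase probes, 1 bar per array, stacked by complex. The 6 Staufen2 bars (1.07% to 1.32%) are all shorter than the 6 preimmune bars (1.43% to 2.22%), while their complex II segments are taller.

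In complex II, succinate dehydrogenase, the membrane anchors and the catalytic subunits differed in opposite directions on quantile-normalised and bright-probe values, but not with median centring or no scaling. Sdhd, the small anchor subunit of the cytochrome b part, had raw signals (lowest, median and highest) of 4055, 5570.3 and 8662 on the Staufen2 arrays, against 73.3, 166 and 269 on the preimmune arrays. Raw signals of the groups did not overlap for 91.1% of all tested probes, so lack of overlap sets no single gene apart. For Sdhd the lowest Staufen2 array was far above the highest preimmune array. The log2 difference was 2.29 ± 0.38 (SE, n = 6 per group; limma, adjusted p = 0.000364), and 2.09 ± 0.19 on bright-probe values. Sdhc, the large anchor subunit, had raw signals of 6122, 10112 and 12728 on the Staufen2 arrays, against 99.2, 423 and 1027 on the preimmune arrays, with no overlap. It was higher by 0.55 ± 0.21 (limma, adjusted p = 0.0422) and by 0.99 ± 0.24 on bright-probe values, but it was at -0.074 with array weights.

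The Sdhc call over all tested probes rested on single arrays: it ended without Staufen2 replicate 0, 1, 4 or 5 or preimmune replicate 2, 5 or 6, at differences of 0.46 to 0.53, and within the first run of column codes described above (0.29). Sdhb, the iron-sulphur subunit, had raw signals of 1093, 1390.1 and 2820.5 on the Staufen2 arrays, against 79.4, 266 and 375 on the preimmune arrays, with no overlap, as for 91.1% of all tested probes. It was lower, at -0.98 ± 0.30 (limma, adjusted p = 0.0168; bright-probe -0.68 ± 0.20), but stood at 0.85 with median centring and 3.47 with no scaling. Sdha, the flavoprotein that oxidises succinate, had raw signals of 305, 392 and 788 on the Staufen2 arrays, against 78.3, 127 and 139 on the preimmune arrays. Its difference of -0.98 ± 0.37 (limma, adjusted p = 0.0463; bright-probe -0.71 ± 0.28) was called, but the call ended without Staufen2 replicate 0, 1, 2, 3 or 4 or preimmune replicate 1, 4, 5 or 6, at -1.04 to -0.76, and stood at 0.29 with median centring and 2.91 with no scaling. The gap between the anchors and the catalytic subunits was not itself tested. Sdhd and Sdhc stood above Sdhb and Sdha under quantile normalisation and with no scaling. Median centring shifts all genes of an array alike, so by construction it leaves that gap as it is with no scaling.

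**Figure D3:**
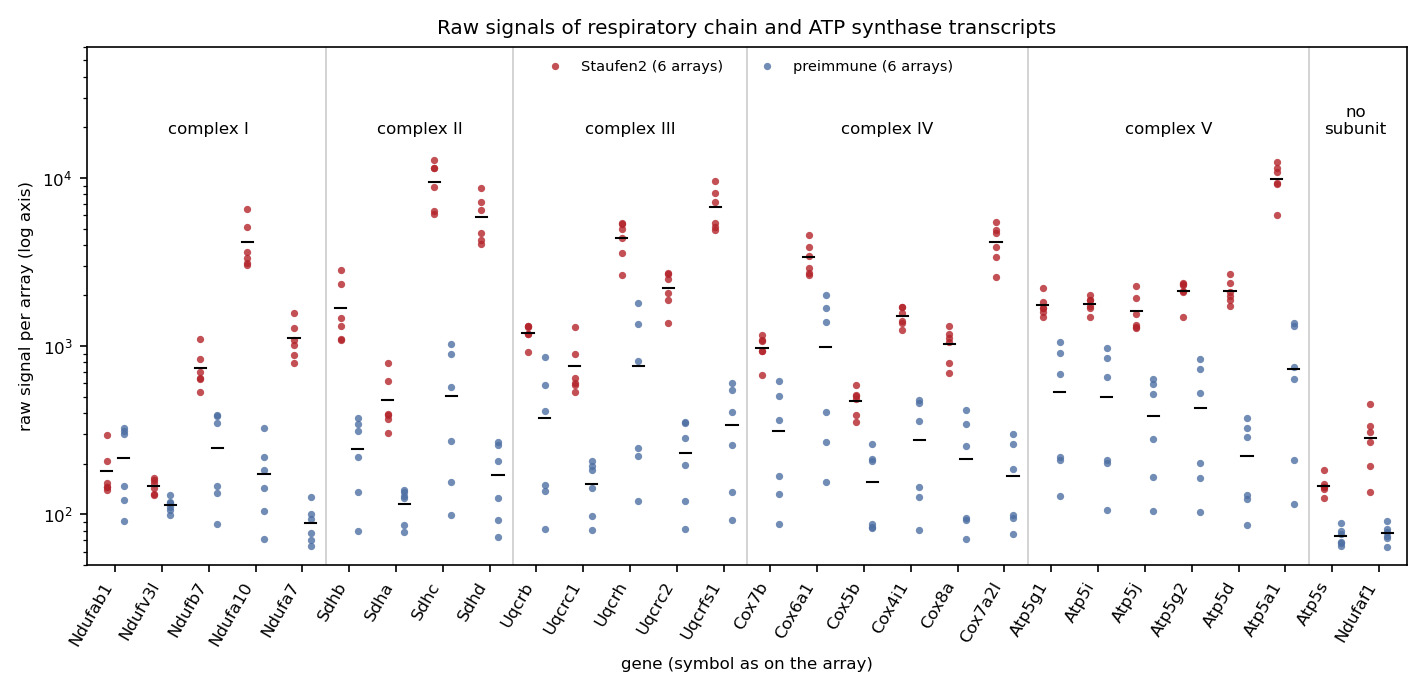
Raw signal (vertical log axis) on each of the 6 Staufen2 and 6 preimmune arrays for the named genes, grouped by complex. Points are arrays and bars are group means. For Ndufab1 the groups overlap at 140 to 296 and 91.3 to 324, whereas for Sdhd they lie apart at 4055 to 8662 and 73.3 to 269. Raw signals of the groups did not overlap for 91.1% of all tested probes.

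Complex I, the NADH dehydrogenase, is built from core subunits that carry the flavin and iron-sulphur clusters and from many accessory subunits around them. Of its 24 tested genes 16 were lower, 2 higher and 6 not called, where 14.5% and 31.3% of all tested probes were lower and higher. The median was -1.09, but 0.18 with median centring and 2.80 with no scaling. On bright-probe values 16 of 22 were lower and 1 higher, with a median of -1.26, where 41.6% and 27.3% of all bright probes were lower and higher. The 6 core subunits had a median of -0.99 with 3 lower, the Ndufa subunits -0.82 with 3 of 7 lower and 2 higher, and the Ndufb subunits, most of which sit in the membrane arm, -1.51 with 6 of 7 lower. The other 4 tested accessory subunits (Ndufab1, Ndufc2, Ndufs5b and Ndufv3l) were all lower, with a median of -2.29. These roles were assigned after the values were seen.

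Ndufab1, the mitochondrial acyl carrier protein, had raw signals of 140.0, 149 and 296 on the Staufen2 arrays, against 91.3, 223 and 324 on the preimmune arrays. The preimmune median was above the Staufen2 median, which set it apart from the other tested genes. Its log2 difference was -4.05 ± 0.25 (SE, n = 6 per group; limma, adjusted p = 9.72e-07), -4.43 ± 0.24 on bright-probe values, -2.35 with median centring and 0.28 with no scaling. Its mean raw signal on Staufen2 arrays was 181. All 346 bright probes with a mean under 200 there were lower on bright-probe values, with a median of -3.89. Its share of the array's signal was 0.00119% on Staufen2 arrays and 0.0266% on preimmune arrays, with no overlap.

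Ndufv3l, now Ndufv3, an accessory subunit of the NADH-oxidising module, followed at -2.66 ± 0.56 (limma, adjusted p = 0.00198; bright-probe -3.52 ± 0.47), with raw signals of 131, 149 and 165 on the Staufen2 arrays, against 98.6, 113 and 130.2 on the preimmune arrays. It was near background in both groups, in a signal range where all bright probes were lower. Its normalised signal was highest on preimmune replicates 6 and 2, at 11.15 and 10.17, against 7.27 to 8.74 on the other preimmune arrays. Those 2 arrays detected the fewest probes, and their part in its difference was not tested. Ndufb7, a membrane-arm subunit, had raw signals of 537, 676 and 1105 on the Staufen2 arrays, against 87.2, 248 and 388 on the preimmune arrays, with no overlap, as for 91.1% of all tested probes. Its difference was -2.27 ± 0.27 (limma, adjusted p = 2.71e-05; bright-probe -1.77 ± 0.20), but stood at 2.21 with no scaling, and its call ended with median centring (-0.41).

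Ndufa10 and Ndufa7, both accessory subunits, were the complex I genes called higher. Ndufa10 had raw signals of 3045, 3487 and 6558 on the Staufen2 arrays, against 70.8, 163 and 326 on the preimmune arrays, with no overlap, as for 91.1% of all tested probes. It was higher by 1.79 ± 0.53 (SE, n = 6 per group; limma, adjusted p = 0.014) and by 1.56 ± 0.18 on bright-probe values, with preimmune replicate 6 far below the other preimmune arrays in normalised signal. Ndufa7 had raw signals of 798, 1055 and 1582 on the Staufen2 arrays, against 64.9, 85.3 and 127 on the preimmune arrays. Its difference was 2.46 ± 0.32 (limma, adjusted p = 5.48e-05), but only 3 of the 6 preimmune arrays detected it and it had no bright-probe value, so its size rests partly on preimmune values at background. The core subunits Ndufs1 and Ndufv1 were not called, at -0.14 ± 0.59 and -0.47 ± 0.41, while Ndufs7, at -1.06 ± 0.33 (limma, adjusted p = 0.0174), was lower. Ndufaf1 had a difference of 0.66 ± 0.13 (limma, adjusted p = 0.00151), with detection on 1 preimmune array and a call that ended with median centring (0.14). Atp5s had raw signals of 124, 144 and 183 on the Staufen2 arrays, against 64.4, 72.1 and 88.1 on the preimmune arrays, and was detected on 0 preimmune arrays. It lay too near background for a bound on its fold.

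Complex III, ubiquinol-cytochrome c reductase, had 3 of 5 genes lower, 1 higher and 1 not called. Among all tested probes 14.5% were lower and 31.3% higher. The median of complex III was -1.07, but 0.83 with median centring and 3.45 with no scaling. Uqcrb, which binds near the ubiquinone site, had raw signals of 921, 1239.5 and 1320.1 on the Staufen2 arrays, against 81.6, 281 and 863 on the preimmune arrays. It was lower, at -1.78 ± 0.31 (SE, n = 6 per group; limma, adjusted p = 0.000485; bright-probe -1.50 ± 0.27), though at 0.058 with median centring and 2.68 with no scaling. Uqcrc1, a core protein, and Uqcrh, the hinge protein at cytochrome c1, were at -1.15 ± 0.27 and -1.07 ± 0.21 (bright-probe -0.72 ± 0.21 and -0.69 ± 0.27), and at 0.53 and 0.83 with median centring and 3.15 and 3.45 with no scaling. Uqcrfs1, the Rieske iron-sulphur protein, was the gene called higher. Its raw signals were 4895, 6293 and 9605 on the Staufen2 arrays, against 91.9, 333 and 607 on the preimmune arrays, and its difference was 0.58 ± 0.18 (limma, adjusted p = 0.0187) and 1.01 ± 0.17 on bright-probe values, with the call lost under array weights (0.25). Uqcrc2, the second core protein, was not called at -0.38 ± 0.20, but was called lower without preimmune replicate 6 (-0.49).

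Complex IV, cytochrome c oxidase, had 7 tested genes, of which 4 were lower, 1 was higher and 2 were not called. Among all tested probes 14.5% were lower and 31.3% higher. The median of complex IV was -1.09, but 0.76 with median centring and 3.39 with no scaling. Cox7b, a small membrane subunit, had raw signals of 671, 1003 and 1170.1 on the Staufen2 arrays, against 87.8, 266 and 623 on the preimmune arrays. It was lower, at -2.07 ± 0.23 (SE, n = 6 per group; limma, adjusted p = 1.69e-05; bright-probe -1.60 ± 0.20), a call that ended with median centring (-0.20) and that turned with no scaling (2.42). Cox6a1, the form of subunit 6a that most tissues use, had raw signals of 2632, 3177 and 4593 on the Staufen2 arrays, against 156, 893 and 2004 on the preimmune arrays. This gave a difference of -1.89 ± 0.26 (limma, adjusted p = 7.98e-05; bright-probe -1.64 ± 0.32), but at -0.10 with median centring and 2.52 with no scaling. The muscle form Cox6a2 was detected on 0 of the 12 arrays, as was Cox8h, a second form of subunit 8.

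Cox4i1, a regulatory subunit, was at -1.09 ± 0.27 (limma, adjusted p = 0.00487; bright-probe -0.75 ± 0.24), and at 0.76 with median centring and 3.39 with no scaling. Cox7a2l, which resembles subunit 7a and is known for joining complexes III and IV into supercomplexes, was the gene called higher. Its raw signals were 2589, 4273 and 5473 on the Staufen2 arrays, against 75.9, 143 and 302 on the preimmune arrays, with no overlap, as for 91.1% of all tested probes. Its difference was 1.77 ± 0.30 (limma, adjusted p = 0.00037) and 1.90 ± 0.26 on bright-probe values. Cox5b and Cox8a were not called, at -1.32 ± 0.54 (limma, adjusted p = 0.0589) and -0.24 ± 0.63. Cox5b was called lower without preimmune replicate 2 (-1.74) or 5 (-1.63).

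The ATP synthase had the lowest median of the 5 complexes, -1.52, with 8 of 10 tested genes lower and 0 higher. Among all tested probes 14.5% were lower and 31.3% higher. With median centring the median of the ATP synthase was 0.22 and with no scaling 2.85, beside 0.18 and 2.80 for complex I. On bright-probe values 8 of 10 were lower and 0 higher, where 41.6% and 27.3% of all bright probes were lower and higher. The bright-probe median was -1.24, beside -1.26 for complex I. No test of the difference between complexes was made. The 6 tested subunits of the membrane part and peripheral stalk were all lower, with a median of -1.89, whereas 2 of the 4 subunits of the catalytic head and central stalk were, with a median of -0.73. These roles too were assigned after the values were seen. Atp5a1 and Atp5b of the head had mean raw signals of 9847 and 7608 on Staufen2 arrays. Above 4000 units 71.5% of all bright probes were higher. Atp5c1 and Atp5d lay at 1557 and 2130, and the 6 others from 243 (Atp5h) to 3096 (Atp5o). The part of level was not tested.

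Atp5g1, which encodes the proton-carrying c subunit of the rotor, had raw signals of 1498, 1684 and 2211 on the Staufen2 arrays, against 129, 450.1 and 1053 on the preimmune arrays. It was lower, at -2.18 ± 0.23 (SE, n = 6 per group; limma, adjusted p = 1.43e-05; bright-probe -1.72 ± 0.23), but at -0.22 with median centring, without a call, and 2.41 with no scaling. Atp5g2, which encodes the same mature protein, was at -1.52 ± 0.19 (limma, adjusted p = 4.43e-05; bright-probe -0.99 ± 0.21), and at 0.49 and 3.12 under the other scalings. The Atp5g3 probe, for the third gene of the c subunit, was detected on 2 Staufen2 and 0 preimmune arrays.

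Atp5i, now Atp5me, a small membrane subunit found at the dimer interface, had raw signals of 1488, 1798 and 2006 on the Staufen2 arrays, against 106, 431 and 978 on the preimmune arrays. The difference was -2.01 ± 0.20 (limma, adjusted p = 1.07e-05; bright-probe -1.51 ± 0.22), with -0.023 under median centring and 2.60 with no scaling. Atp5j, a peripheral stalk subunit, had -1.99 ± 0.18 (limma, adjusted p = 5.2e-06; bright-probe -1.42 ± 0.15), with 0.049 and 2.67 under those scalings. Atp5a1, the alpha subunit of the catalytic head, had raw signals of 6029, 10032 and 12356 on the Staufen2 arrays, against 115, 692 and 1363 on the preimmune arrays, and its difference was -0.0062 ± 0.15 (limma, adjusted p = 0.975; bright-probe 0.36 ± 0.21). Its partner in the head, the beta subunit Atp5b, was lower, at -1.14 ± 0.20 (limma, adjusted p = 0.000645; bright-probe -1.02 ± 0.23), with raw signals of 4784, 6027 and 13138 on the Staufen2 arrays, against 170.0, 1389 and 2193 on the preimmune arrays. Atp5d, the delta subunit of the central stalk, was not called at -0.31 ± 0.22. In normalised signal preimmune replicate 5 stood apart from the other preimmune arrays for Atp5b, where it was the highest, and for Atp5i, Cox6a1 and Uqcrh, where it was the lowest.

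**Figure D4:**
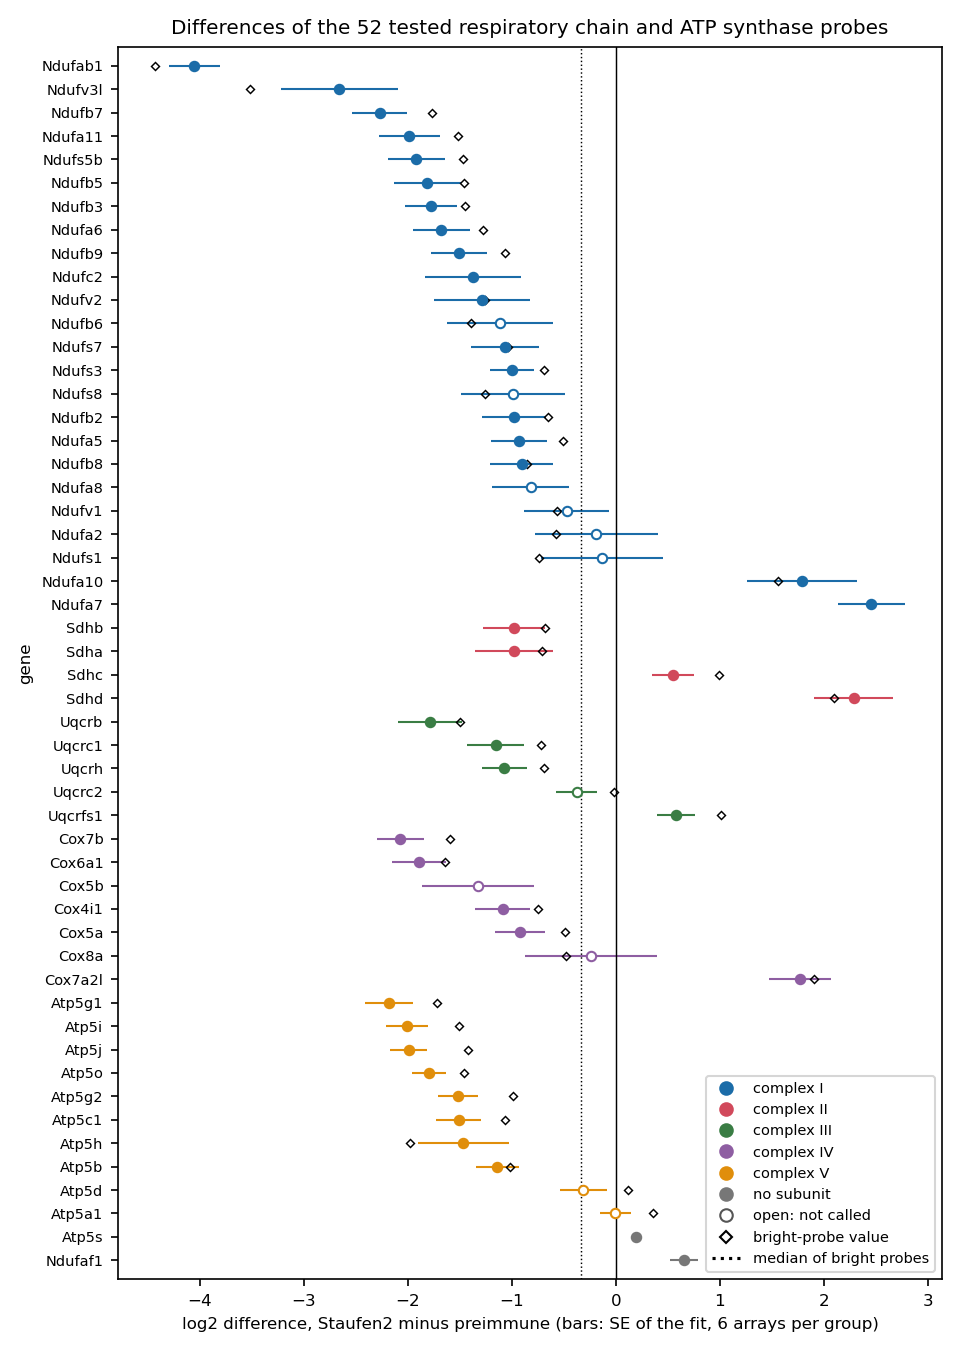
Log2 difference, Staufen2 minus preimmune, of the 52 tested probes (horizontal axis; 1 row per gene, coloured by complex). Circles with bars are quantile-normalised differences ± SE (6 arrays per group), filled where called, diamonds are bright-probe values and the dotted line is the median of all bright probes (-0.34); 33 filled circles lie below 0 and 8 above (14.5% and 31.3% of all tested probes), whereas with median centring 4 were lower and 11 higher (41.4% and 34.2% of all) and with no scaling 0 and 51. The circle of Atp5s is no measured fold, since no preimmune array detected it.

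Within the first run of column codes, with 4 arrays per group, 39 of the 52 were lower and 7 higher (limma, adjusted p under 0.05), where 16.2% and 30.6% of all tested probes were. The second run, with 2 arrays per group, gave 0 calls among the 52 and 0 over all tested probes, and its median was -0.64. At an unadjusted p under 0.05, 11 of the 52 were lower and 7 higher there, where 731 (8%) and 2310 (25.3%) of all 9136 tested probes were. With the run as a block the counts were 33 lower and 8 higher, against 15.8% and 33.5% of all tested probes.

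Sequences before the genes' starts were read to see what genes of the respiratory chain share beside their symbol. RefSeq promoters (build GRCr8, 250 bases before to 50 after each start) were found for 53 of the 60. The letters GCGC, any base and then TGCGC, the site of the nuclear respiratory factor NRF1, were present on either strand in 13 of the 53 (24.5%), against 5.67% of promoters of protein-coding genes. The core of ETS sites, CCGGAAG, which the respiratory factor GABP also binds, was in 16 (30.2%), against 10.7%. The YY1 letters AAGATGGC were in 11 (20.8%), against 3.67%. The ETS core ends with the letters that begin the YY1 motif, so 1 run of bases can hold both, and a match is a description of letters only. The NRF1 letters were in 10 of the 29 matched genes called lower, in 0 of the 8 called higher, in 0 of the 10 not called and in 3 of the 6 not tested; this was not tested.

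The 100 bases before the start that the table uses are given for Sdhd, the highest gene with a bright-probe value, for Atp5i, the lowest tested gene with both NRF1 and ETS letters in this window, and for Ndufb7, the lowest with ETS letters there. Capitals mark the NRF1 and ETS letters on either strand, and for Atp5i the annotated gene span begins within the window.
Sdhd (chr8:59850642-59850741, minus strand): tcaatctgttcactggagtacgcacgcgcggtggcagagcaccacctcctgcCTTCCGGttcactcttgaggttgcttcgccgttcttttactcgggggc
Atp5i (chr14:1464760-1464859, plus strand): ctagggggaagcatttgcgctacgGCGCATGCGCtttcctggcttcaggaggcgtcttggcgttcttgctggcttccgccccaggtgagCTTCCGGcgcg
Ndufb7 (chr19:41477292-41477391, minus strand): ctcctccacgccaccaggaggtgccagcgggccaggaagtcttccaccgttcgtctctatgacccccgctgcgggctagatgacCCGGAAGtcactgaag
Within these 100 bases Sdhd and Ndufb7 each held 1 ETS match, although their differences were 2.29 and -2.27. Over the whole promoter Sdhd held 2 ETS matches and Ndufb7 held 1.

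Other mitochondrial genes were counted on the quantile-normalised scale, where 14.5% of all tested probes were lower and 31.3% higher. Of 11 tested assembly factors and cytochrome c genes 4 were lower and 3 higher, with a median of 0.18. Cox17, a copper chaperone of complex IV, was the lowest at -2.48 ± 0.28, with mean raw signals of 237 and 140.3 on Staufen2 and preimmune arrays (limma, adjusted p = 2.02e-05). Surf1, an assembly factor of complex IV, was the highest at 1.32 ± 0.20, with mean raw signals of 2615 and 134 (limma, adjusted p = 0.000162). Of 13 tricarboxylic acid cycle and pyruvate dehydrogenase genes 2 were lower and 1 higher, with a median of 0.28, from Mdh2, malate dehydrogenase, at -1.41 ± 0.26, with mean raw signals of 1325 and 258 (limma, adjusted p = 0.000684) to Dlst, of the oxoglutarate dehydrogenase complex, at 2.24 ± 0.34, with mean raw signals of 1274 and 90.1 (limma, adjusted p = 0.000175).

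Protein import genes had 3 of 14 lower and 4 higher, with a median of 0.02, from Timm23 at -1.46 ± 0.18, with mean raw signals of 1102 and 232 (limma, adjusted p = 4.22e-05) to Timm22 at 2.22 ± 0.43, with mean raw signals of 2116 and 121 (limma, adjusted p = 0.00105), both channel proteins of the inner membrane. The carriers and porins were nearest to the respiratory chain, with 5 of 7 lower, 1 higher and a median of -1.08. Slc25a3, the phosphate carrier, was at -1.40 ± 0.22, with mean raw signals of 1939 and 349.8 (limma, adjusted p = 0.000202), and Vdac1, a porin of the outer membrane, at 1.94 ± 0.40, with mean raw signals of 4453 and 164 (limma, adjusted p = 0.00178). Of 7 nuclear regulators of mitochondrial genes 1 was lower and 3 higher, with a median of 0.18, from Tfb1m, a mitochondrial rRNA methyltransferase, at -1.81 ± 0.48, with mean raw signals of 137 and 98.1 (limma, adjusted p = 0.00801) to Gabpb1, a GABP subunit, at 1.26 ± 0.26, with mean raw signals of 509 and 84.7 (limma, adjusted p = 0.00151). On bright-probe values these 5 lists had 3 lower and 2 higher of 8, 3 and 1 of 9, 3 and 3 of 9, 4 and 1 of 6, and 1 and 0 of 2, in the same order. Of all bright probes 41.6% were lower and 27.3% higher. Dlst and Gabpb1 were detected on 4 and 3 preimmune arrays and had no bright-probe value. The differences between these lists and the respiratory chain were not tested.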

How the data were processed

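RNA from 6 Staufen2 and 6 preimmune immunoprecipitates was amplified, labelled with biotin and hybridised to Illumina rat arrays. The authors deposited raw signal intensities for 22226 probes, with a detection p-value for each probe and array; the submitters' processing notes name RMA, with no version. A second deposited table holds log2 values, which match the raw signals on a log2 scale for each of the 22226 probes (tolerance 1e-04), and it was not used further. Detection columns carry codes in place of sample names and were matched to the signal column they follow; with probes sorted by signal, 205 to 268 of 22225 adjacent pairs broke the order in the matched column, against at least 6744 in any other. The 12 columns of bead errors were not used.

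Signals were background-corrected with normexp from the detection p-values (neqc, offset 16) and quantile-normalised in limma 3.58.1 (R 4.3.3). Probes detected (p under 0.05) on at least 6 of 12 arrays were tested by lmFit and eBayes (two-sided, with a variance trend on intensity), with Benjamini-Hochberg adjustment over all tested probes. The bright-probe fit used log2 signal over background with values of 20 or less set missing: preimmune replicates 6 and 2 kept 25.7% and 54.1% of the bright probes, and a missing value left that array out of the gene's fit. Each array's centre was taken over all bright probes before values were set missing. The pipeline was tested on simulated data, whose outcome is not given here, so the calls do not rest on it. The bright-probe fit was planned on the premise that quantile normalisation at yields this unequal calls many unchanged probes. No result given here tests that premise, and the quantile-normalised calls and their adjusted p-values carry it as a limit. Precision is limited by how many arrays there are, and depth by how far signals exceed background.

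Members, gene lists, tests and alternatives were chosen with earlier results of these data known, and the roles within complexes I and V and the promoter windows after values were seen. Named genes were, per complex, the 3 lowest and 2 highest tested, every gene called higher, isoform families, and the lowest and highest gene of each other list; further genes were chosen after their values were seen. Symbols are those of the file, with newer names from RefSeq (GRCr8).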

Additional observations from a re-analysis of the deposited data

Results flagged for a closer look

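Each of the 52 tested genes was examined in each group for an array whose gap to its nearest neighbour was large beside the range of all 6 (a ratio above Dixon's critical value). Of 104 such groups 14 held one, and chance gives about 1 in 20. The ratio follows each gene, and levels are normalised log2 signals.

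On Staufen2 replicate 5, Ndufa5 was the highest of its group, with a ratio of 0.692, at 10.26 where the other 5 arrays lay between 9.20 and 9.53. On Staufen2 replicate 1, Ndufs8 was the highest of its group, with a ratio of 0.752, at 7.65 where the other 5 arrays lay between 7.20 and 7.31. Ndufv3l was also the highest there, with a ratio of 0.662, at 6.32 where the other 5 arrays lay between 6.20 and 6.24.

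On preimmune replicate 5, Atp5b was the highest of its group, with a ratio of 0.798, at 13.58 where the other 5 arrays lay between 12.79 and 12.95. On preimmune replicate 5, Atp5i was the lowest of its group, with a ratio of 0.799, where the other 5 arrays lay between 11.85 and 12.06. Atp5o was also the lowest there, with a ratio of 0.927, at 11.75 where the other 5 arrays lay between 12.51 and 12.57. Cox6a1 was also the lowest there, with a ratio of 0.741, at 11.56 where the other 5 arrays lay between 12.66 and 13.05. Uqcrh was also the lowest there, with a ratio of 0.693, at 11.35 where the other 5 arrays lay between 12.21 and 12.59. On preimmune replicate 1, Atp5s was the highest of its group, with a ratio of 0.714, at 6.20 where the other 5 arrays lay between 5.97 and 6.04. On preimmune replicate 6, Ndufa10 was the lowest of its group, with a ratio of 0.87, at 6.37 where the other 5 arrays lay between 9.57 and 10.05. Ndufb6 was also the lowest there, with a ratio of 0.662, at 6.07 where the other 5 arrays lay between 8.53 and 9.78. Ndufs7 was also the lowest there, with a ratio of 0.633, at 7.02 where the other 5 arrays lay between 8.24 and 8.96. Ndufv2 was also the lowest there, with a ratio of 0.753, at 7.80 where the other 5 arrays lay between 10.19 and 10.98. On preimmune replicate 3, Ndufaf1 was the highest of its group, with a ratio of 0.719, at 6.27 where the other 5 arrays lay between 6.00 and 6.08.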

How the results depend on the processing

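The relative direction depends on the scaling between arrays. Median centring used the median of the tested probes, which was chosen after seeing that the median of all probes lay at background. With median centring 4 of the 52 tested genes were lower and 11 higher (41.4% and 34.2% of all tested probes), and 14 lay below the median of all tested probes, against 44 of 52 with quantile normalisation. The median was 0.29 over the 52, 0.18 for complex I, 1.67 for complex II, 0.83 for complex III, 0.76 for complex IV and 0.22 for complex V. With no scaling 0 were lower and 51 higher, and the medians were 2.91 over the 52 and 2.80, 4.29, 3.45, 3.39 and 2.85 for complexes I to V; over all tested probes 0 were lower and 9135 higher, with a median of 2.57. Median centring turned Atp5a1 (1.88), Atp5d (1.57), Atp5g2 (0.49), Atp5j (0.049), Atp5s (-0.43), Cox4i1 (0.76), Cox8a (0.80), Sdha (0.29), Sdhb (0.85), Uqcrb (0.058), Uqcrc1 (0.53), Uqcrc2 (1.48) and Uqcrh (0.83). No scaling turned Atp5a1 (4.51), Atp5d (4.19), Atp5g1 (2.41), Atp5g2 (3.12), Atp5i (2.60), Atp5j (2.67), Cox4i1 (3.39), Cox5b (2.45), Cox6a1 (2.52), Cox7b (2.42), Cox8a (3.43), Ndufab1 (0.28), Ndufb7 (2.21), Ndufv3l (1.37), Sdha (2.91), Sdhb (3.47), Uqcrb (2.68), Uqcrc1 (3.15), Uqcrc2 (4.10) and Uqcrh (3.45). The genes Cox7a2l, Ndufa10, Ndufa7, Sdhc, Sdhd and Uqcrfs1 were called higher under all 3 scalings, though with no scaling nearly all tested probes were.

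Other settings turned fewer of the named genes. Without background correction the median was -0.71 over the 52, -0.69 for complex I and -1.17 for complex V. Complex IV was at -0.20 with no detection filter. Over probes detected on all 12 arrays 30 were lower and 3 higher, where 970 and 264 of all 1683 such probes were. Complex I was at -1.73 there and complex II at -0.98. Array weights gave 43 lower and 6 higher, where 2887 and 3290 of all 9136 tested probes were. Under these weights complex I was at -1.65, complex V at -1.82, Atp5a1 at 0.085 and Sdhc at -0.074. Complex I was at -1.58 without preimmune replicates 2 and 6 together. The first code run alone had a median of -1.39, complex I at -1.73, complex V at -1.85 and Atp5a1 at 0.028. The second run alone gave 0 lower and 0 higher, with medians of -0.64 over the 52 and -0.53, 0.43, -0.64, -0.64 and -1.15 for complexes I to V, and turned Atp5d (0.058) and Cox8a (1.42). Leaving out 1 array at a time gave 29 to 35 lower, 7 to 8 higher and a median of -1.17 to -1.01, with complex I from -1.54 to -0.99, II from -0.28 to -0.12, III from -1.12 to -0.99, IV from -1.21 to -0.99 and V from -1.69 to -1.47. Of all 9136 tested probes 1065 to 1817 were then lower and 2612 to 2948 higher. Leaving out 1 array turned 2 genes that were not called, Atp5a1 (-0.057 to 0.096, above 0 without Staufen2 replicate 0 or 1 or preimmune replicate 4 or 5) and Cox8a (-0.77 to 0.054, above 0 without preimmune replicate 1, 3 or 4). Bright-probe counts were 30 to 36 lower and 5 to 6 higher when 1 array was left out, where 1292 to 1416 and 843 to 916 of all 3325 were. They were 27 and 4 of 38 with a stricter cut, where 700 and 513 of all 1786 were. Centred on the mean they were 26 and 6 of 47, where 1043 and 1137 of all 3325 were. The cause of these changes was not tested.

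Both groups have replicates numbered 1 to 5, and deviations of same-numbered arrays correlated at 0.26, 0.05, 0.22, -0.12 and 0.30. No other matching of arrays was compared, so whether arrays are paired was not settled. A block on these numbers used only the arrays numbered 1 to 5. It gave 34 lower and 7 higher, where 1587 and 2553 of all 9136 tested probes were, with complex I at -1.49. On bright-probe values it gave 34 lower and 5 higher of 47, where 1364 and 872 of all 3325 bright probes were.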
